A study of Mus musculus with 5 samples.

Results

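TCF/LEF factors and TLE corepressors are the DNA-bound end of the Wnt pathway. The 4 TCF/LEF genes (Lef1, Tcf7, Tcf7l1 and Tcf7l2), the 4 full-length TLE genes (Tle1, Tle2, Tle3 and Tle4) and the coactivator gene Crebbp were taken by symbol, which gave 9 genes of the 33894 named genes measured. They are Lef1 (ENSMUSG00000027985.8), Tcf7 (ENSMUSG00000000782.8), Tcf7l1 (ENSMUSG00000055799.6), Tcf7l2 (ENSMUSG00000024985.11), Tle1 (ENSMUSG00000008305.11), Tle2 (ENSMUSG00000034771.9), Tle3 (ENSMUSG00000032280.9), Tle4 (ENSMUSG00000024642.9) and Crebbp (ENSMUSG00000022521.7). Bulk RNA sequencing was done on mouse haematopoietic stem cells from the bone marrow of animals aged 8 weeks. The cells were sorted for high c-Kit and for Sca1, without lineage markers and without CD34 or Flt3 on the surface. The 3 libraries labelled as double knockout (dKO) carry floxed alleles of both Wnt co-receptors (Lrp6 fl/fl, Lrp5 fl/fl) and Vav-cre, a Cre transgene under Vav elements, which are active in blood cells generally and not only in stem cells. The 2 wild type (WT) libraries are labelled WT alone, with no floxed allele and no Cre named, so an effect of Cre and an effect of losing the co-receptors cannot be told apart. No source used here says whether each library came from its own mouse, and the p-values therefore measure only the spread between these libraries.

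TCF/LEF proteins bind DNA through an HMG box. When Wnt ligands engage Frizzled receptors with Lrp5 or Lrp6, beta-catenin is spared from degradation, enters the nucleus and binds the amino-terminal part of a TCF/LEF protein, where it brings in coactivators such as Crebbp and its relative Ep300, both histone acetyltransferases. Without beta-catenin, TCF/LEF proteins hold TLE proteins, the mammalian relatives of Drosophila Groucho, which bring in histone deacetylases. Tcf7 and Lef1 are best known in T cell and B cell development, and both genes also use internal start sites that give proteins without the beta-catenin-binding part. A count over a whole gene, as used here, does not separate such forms.

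RefSeq lists several starts for some of the genes. All 9 genes matched the RefSeq promoter table for build GRCm38.p6 by symbol, with 15 start sites among them. As a check, the end of each listed sequence, past the start, was searched for in GENCODE transcripts of its gene. It was found for 7 of the 15 windows, so the other starts were not borne out by that check. Printed here are the 250 bases before the start of Tle2, the member with the largest fold change, and before the first and last start of Tcf7l2, the most abundant of the genes, and of Lef1, a factor that is itself a known Wnt target. Each reads 5′ to 3′ on the gene's strand, with plus-strand coordinates, and capitals mark matches to the TCF-type words CTTTGAA or CTTTGAT or CTTTGTA or CTTTGTT, searched on both strands.
Tle2, chr10:81575037-81575286, plus strand: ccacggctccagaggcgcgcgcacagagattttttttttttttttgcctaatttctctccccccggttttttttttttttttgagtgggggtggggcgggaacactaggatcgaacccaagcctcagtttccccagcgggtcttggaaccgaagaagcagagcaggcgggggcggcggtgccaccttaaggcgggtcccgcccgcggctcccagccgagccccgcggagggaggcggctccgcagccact
Tcf7l2 first start, chr19:55741560-55741809, plus strand: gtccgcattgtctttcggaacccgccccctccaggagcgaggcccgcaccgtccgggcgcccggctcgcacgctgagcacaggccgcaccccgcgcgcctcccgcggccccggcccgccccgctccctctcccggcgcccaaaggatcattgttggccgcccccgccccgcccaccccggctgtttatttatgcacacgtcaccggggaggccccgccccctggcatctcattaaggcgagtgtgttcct
Tcf7l2 last start, chr19:55895071-55895320, plus strand: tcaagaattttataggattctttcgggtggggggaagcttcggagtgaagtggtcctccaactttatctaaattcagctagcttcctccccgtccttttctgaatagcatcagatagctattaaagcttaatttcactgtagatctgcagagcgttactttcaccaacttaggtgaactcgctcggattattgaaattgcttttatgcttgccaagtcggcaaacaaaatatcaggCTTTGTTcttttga
Lef1 first start, chr3:131110047-131110296, plus strand: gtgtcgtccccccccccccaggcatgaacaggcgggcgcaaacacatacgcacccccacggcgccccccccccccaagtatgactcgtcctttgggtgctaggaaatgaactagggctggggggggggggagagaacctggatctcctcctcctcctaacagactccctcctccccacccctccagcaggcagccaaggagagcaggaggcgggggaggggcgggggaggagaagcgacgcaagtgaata
Lef1 last start, chr3:131156044-131156293, plus strand: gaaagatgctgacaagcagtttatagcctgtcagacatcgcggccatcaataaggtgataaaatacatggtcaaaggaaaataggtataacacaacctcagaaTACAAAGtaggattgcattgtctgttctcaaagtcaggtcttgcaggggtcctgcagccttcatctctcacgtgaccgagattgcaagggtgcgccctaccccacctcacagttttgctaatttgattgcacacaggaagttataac

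The words share their first letters and can overlap across strands, and each was counted on its own. At least 1 of them was found in 14.8% of the 32851 windows of all genes in the table, and in 2 of the 15 windows of the 9 genes. These were the last start of Lef1, with CTTTGTA on the opposite strand beginning 147 bases before the start, and the last start of Tcf7l2, with CTTTGTT on the same strand 14 bases before it. CTTTGTA was present in 3.2% and CTTTGTT in 5.03% of all windows, while CTTTGAA (4.46%) and CTTTGAT (3.21%) were in none of the 15. The windows also differed in base composition: the first start of Tcf7l2 held 30 CpG dinucleotides and its last start 7, the first and last starts of Lef1 held 11 and 5, and that of Tle2 held 21, against a median of 6 over all windows. A word match is a description of these letters and not a binding site.

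Library totals ranged from 16028512 to 28027458 counts, and between 12894 and 16098 genes had at least 1 count, with dKO replicate 2 the lowest in both. Across genes, in log2(CPM + 1), where CPM is a count scaled for library size, that library correlated with its nearest neighbour at 0.938, whereas each of the other 4 reached 0.966 or more. Lrp6 measured 29.1, 15.7 and 28.4 CPM in dKO replicates 1, 2 and 3, against 25.1 and 9.29 CPM in WT replicates 1 and 2, and Lrp5 did not exceed 2.63 CPM in any library. The dKO label thus came with no lower level of either targeted gene. A whole-gene count cannot show the loss of a floxed exon, so the counts do not settle the genotype and each direction below rests on the labels. All 12 markers on a stem cell list, among them Kit, Ly6a (Sca1), Mecom and Hlf, were detected in every library, whereas Cd34 (761 to 1212 CPM) and Flt3 (116 to 360 CPM), whose proteins the sort excluded, were also present as transcripts. Mpo, myeloperoxidase of granulocyte progenitors, measured 6031 to 9684 CPM in the libraries labelled dKO, against 3447 CPM in WT replicate 1 and 21486 CPM in WT replicate 2, and all 8 markers on a granulocyte progenitor list were highest in WT replicate 2.

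Tcf7l2 was the main TCF/LEF transcript of these cells in every library. In TPM, the authors' transcript level per length and library size, Tcf7l2 measured 40.9, 61.1 and 44.9 in dKO replicates 1, 2 and 3, against 29.5 and 14.1 in WT replicates 1 and 2. It made up 79.5% to 87.8% of the summed TPM of the 4 TCF/LEF genes in the libraries labelled dKO and 88.5% and 75.9% in the WT libraries, so its share of the family overlapped between the groups although its level did not. The summed TCF/LEF level was 59.4 ± 14.5 TPM over dKO libraries (SD, n = 3) and 26.0 ± 10.5 TPM over WT libraries (SD, n = 2). In bulk samples, more cells that express a gene and more transcript per cell cannot be told apart.

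On TMM-scaled counts, Tcf7l2 gave a mean of 104 ± 25.3 CPM over dKO libraries (SD, n = 3) and 54.0 ± 23.0 CPM over WT libraries (SD, n = 2). Its log2 fold change was 0.95 ± 0.35 (SE; 95% interval 0.14 to 1.76), with an unadjusted p of 0.0275 and an adjusted p of 0.450 (edgeR quasi-likelihood test, Benjamini-Hochberg over all 13696 genes tested). The difference rested in part on WT replicate 2, the library with the lowest value: it was 0.56 without that library and 1.45 without WT replicate 1. The summed stem cell markers moved the same way, with 2271, 2461 and 2250 CPM in dKO replicates 1, 2 and 3, against 1784 and 1182 CPM in WT replicates 1 and 2, and 5 of the 12 were higher in every dKO library than in both WT libraries, with 0 lower. On a list of 9 genes taken as markers excluded by the sort, 2, Flt3 and Itgam, were also higher in every dKO library and 0 were lower. That list holds Ptprc, present at 303 to 461 CPM in every library, whose whole-gene count does not separate its forms. It also holds Ly6g and Cd3e, which had 0 counts in all 5 libraries and could not separate the groups. Flt3 measured 338, 300 and 360 CPM in dKO replicates 1, 2 and 3, against 238 and 116 CPM in WT. Itgam measured 19.8, 25.4 and 19.7 CPM in the dKO libraries against 6.19 and 8.37 CPM in the WT libraries. Of all genes tested, 13.7% were higher in every dKO library and 15.6% were lower in every one. The summed granulocyte progenitor markers were 12289, 15761 and 11107 CPM in the libraries labelled dKO, against 6471 and 42271 CPM in WT. The part of any of these marker groups in the Tcf7l2 values was not tested.

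Lef1 was scarce and variable. Lef1 had 106, 75 and 311 counts in dKO replicates 1, 2 and 3, against 23 and 68 counts in WT replicates 1 and 2, or 2.52, 2.57 and 5.70 TPM in the dKO libraries against 0.573 and 1.42 TPM in the WT libraries. All 3 libraries labelled dKO lay above both WT libraries, and dKO replicate 3 was the highest. The log2 fold change was 1.89 ± 1.10 (SE; 95% interval -0.66 to 4.43, adjusted p = 0.607 by edgeR), and it was 1.23 without dKO replicate 3 and 2.92 without WT replicate 2.

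Tcf7, which encodes the factor first known from T cells, had 16, 229 and 81 counts in dKO replicates 1, 2 and 3, against 79 and 54 in WT replicates 1 and 2. The lowest and the highest value both belonged to the group labelled dKO, and the groups overlapped. A log2 fold change of 1.17 ± 1.36 (SE; adjusted p = 0.858 by edgeR) turned to -0.52 without dKO replicate 2, so its sign was set by that library. Tcf7l1, a TCF known mainly as a repressor in mouse embryonic stem cells, measured 2.60, 1.93 and 3.56 TPM in dKO replicates 1, 2 and 3, against 1.17 and 1.45 TPM in WT. Its groups did not overlap, but on counts its log2 fold change of 0.91 had an SE of 1.12 (adjusted p = 0.869 by edgeR), and it was 0.47 without dKO replicate 3. In CPM the margin was narrow, at 2.54 in dKO replicate 2 against 2.28 in WT replicate 2. Before scaling, dKO replicate 2, the library with the lowest total, had 42 counts, against 51 and 57 in WT replicates 1 and 2.

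**Figure D1:**
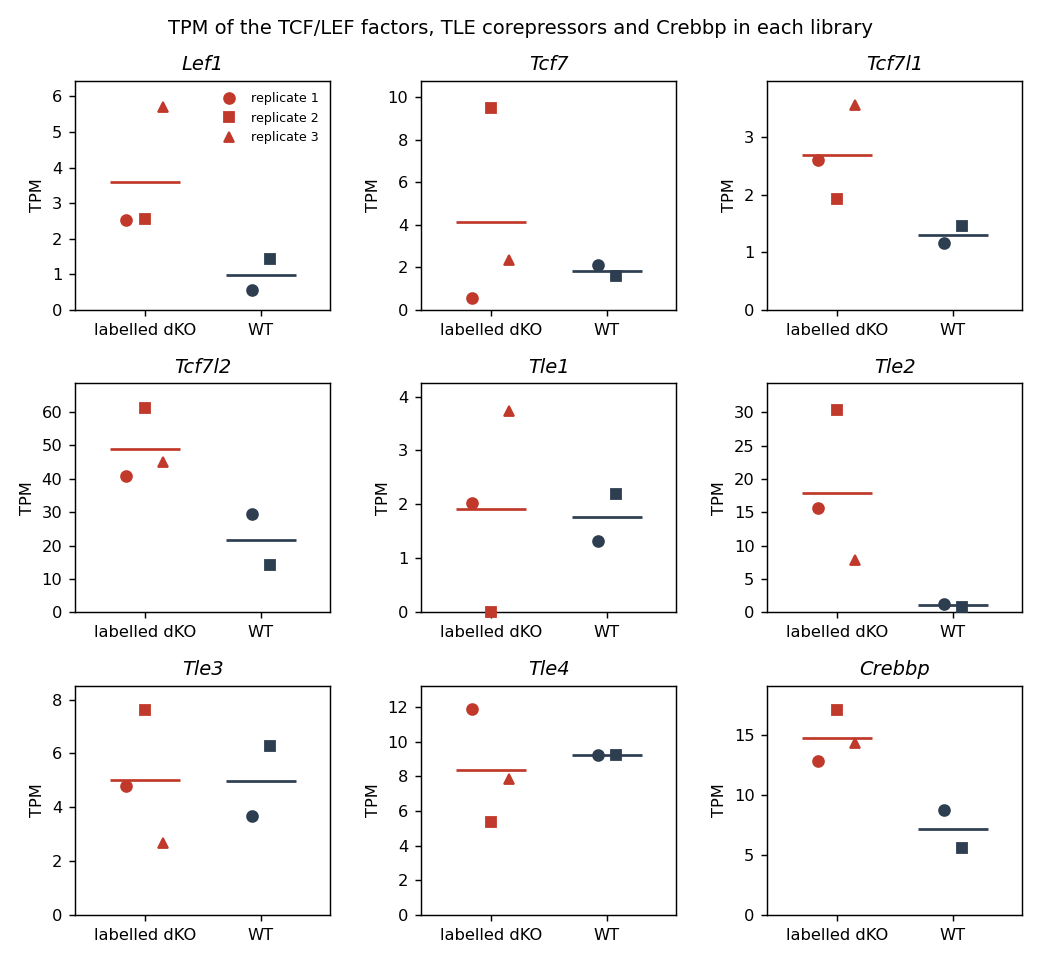
TPM of each of the 9 genes (y axis, from 0, a different scale in each panel) in the 3 libraries labelled dKO and the 2 WT libraries (x axis); each point is 1 library and each horizontal line the group mean. Tle2 lies between 7.89 and 30.3 TPM in the libraries labelled dKO, against 0.867 and 1.22 TPM in WT, while Tcf7, Tle1, Tle3 and Tle4 overlap.

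Lef1 and Tcf7 are also lymphoid genes, and lymphoid markers moved between the libraries. Of 15 early B lineage markers, 5 were higher in every library labelled dKO than in both WT libraries and 0 were lower, against 13.7% and 15.6% of all genes tested. Their summed level was 192, 396 and 530 CPM in dKO replicates 1, 2 and 3, against 252 and 173 CPM in WT replicates 1 and 2, and the transcription factor Ebf1 measured 3.50, 12.3 and 28.6 CPM in the dKO libraries against 1.37 and 0.481 CPM in the WT libraries. The sums overlapped and the Ebf1 values did not. The highest library for both the B lineage sum and Ebf1 was dKO replicate 3, as for Lef1. Among the other markers higher in every dKO library, Cd79a (52.2 CPM) and Vpreb1 (52.6 CPM) also peaked there. Blnk (61 CPM) and Vpreb2 (11 CPM) were instead highest in dKO replicate 2, as was Rag1 (2.54 CPM). The log2 fold change was -0.08 for Cd79b and -0.67 for Rag2, and above 0 for the other tested markers on the list. Pax5, which defines committed B cells, did not exceed 0.333 CPM in any library. The part of B lineage transcripts in the Lef1 values was not tested.

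For Tcf7 the highest library was dKO replicate 2, which also had the highest Cd3g, a T cell receptor subunit, at 10.8 CPM against 0.798 CPM or less in the other libraries, and the highest Cd4, at 8.76 CPM. The 15 T cell markers summed to 118, 143 and 179 CPM in dKO replicates 1, 2 and 3, against 158 and 73.3 CPM in WT replicates 1 and 2, ranges that overlap. Other markers on the list peaked elsewhere. Lck (56.4 CPM), Lat (116 CPM) and Thy1 (4.37 CPM) were highest in dKO replicate 3. Cd247 was highest in WT replicate 1 (4.45 CPM) and had 0 counts in dKO replicate 2. Cd3e, a defining T cell gene, had 0 counts in all 5 libraries, and Cd3d and Cd8a stayed at or under 0.950 CPM. The part of T cell transcripts in the Tcf7 values was not tested.

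Among the corepressors, Tle2 differed most by fold change. It had 579, 633 and 252 counts in dKO replicates 1, 2 and 3, against 38 and 24 counts in WT replicates 1 and 2, or 21.3, 38.3 and 9.34 CPM in the dKO libraries against 1.44 and 0.961 CPM in the WT libraries. Every library labelled dKO was above both WT libraries, the lowest of them being dKO replicate 3. Group means were 18.0 ± 11.4 TPM in dKO libraries (SD, n = 3) and 1.04 ± 0.252 TPM in WT libraries (SD, n = 2), and the ratio of mean CPM was 19.1. The log2 fold change was 4.25 ± 0.81 (SE; 95% interval 2.38 to 6.12) with an unadjusted p of 0.000839, the 24th smallest of all genes tested, and an adjusted p of 0.430 by edgeR. DESeq2, run as an alternative, gave Tle2 an adjusted p of 6.66e-06, and it was the 1 member that any alternative called. Leaving out each library in turn gave values between 3.68 and 4.63.

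By TPM, Tle2 ranked 2, 2 and 3 among the 9 genes in dKO replicates 1, 2 and 3, against 7 and 9 in WT replicates 1 and 2. Its share of the summed TLE level was 45.6%, 70.0% and 35.7% in dKO replicates 1, 2 and 3, against 7.90% and 4.67% in WT replicates 1 and 2. The 4 TLE genes summed to 33.3 ± 10.6 TPM over dKO libraries (SD, n = 3) and 17.0 ± 2.18 TPM over WT libraries (SD, n = 2). Without Tle2 the sum was 18.7, 13.0 and 14.2 TPM in dKO replicates 1, 2 and 3, against 14.3 and 17.7 TPM in WT replicates 1 and 2, and the groups overlapped.

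**Figure D2:**
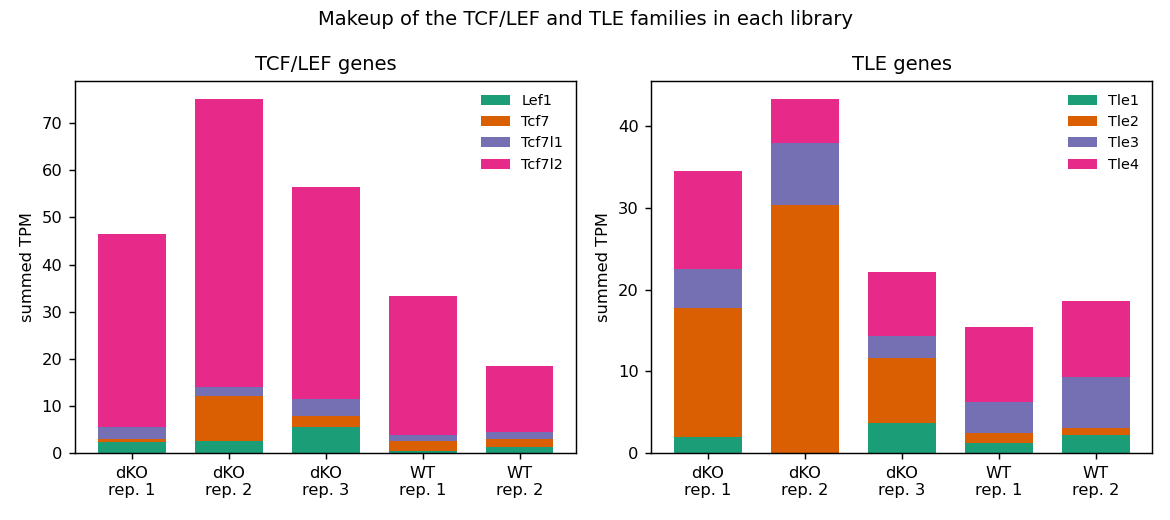
Summed TPM (y axis) of the TCF/LEF genes, left, and the TLE genes, right, in each library (x axis), with each gene as a coloured part of the bar. Tcf7l2 fills most of every TCF/LEF bar, and Tle2 takes 35.7% to 70.0% of the TLE bars of the libraries labelled dKO, against 7.90% and 4.67% in WT.

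Tle4 was the leading transcript in WT among the full-length TLE genes. The short TLE relatives Aes and Tle6 were higher there. Aes measured 81.8 and 54.3 TPM in WT replicates 1 and 2, and Tle6 measured 30.1 and 22.9 TPM. Tle4 measured 11.9, 5.35 and 7.83 TPM in dKO replicates 1, 2 and 3, against 9.25 and 9.22 TPM in WT replicates 1 and 2. The WT values lay inside the range of the libraries labelled dKO, and the log2 fold change was -0.37 ± 0.47 (SE; adjusted p = 0.871 by edgeR). Without dKO replicate 2 it was -0.09, and without dKO replicate 1 it was -0.68. Tle3 measured 16.1, 31.5 and 19.6 CPM in dKO replicates 1, 2 and 3, against 18.4 and 24.9 CPM in WT. Its log2 fold change was 0.05 with a 95% interval of -0.997 to 1.09. That interval holds values on both sides of 0, so the direction of a difference was not resolved. Tle1 had 89, 0 and 92 counts in dKO replicates 1, 2 and 3, against 53 and 111 in WT replicates 1 and 2. The 0 counts in dKO replicate 2 allow up to 0.181 CPM (3 counts per library, counting error only). The log2 fold change of Tle1 was -0.53, and it was 0.06 without dKO replicate 2 and 0.15 without WT replicate 2.

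Crebbp, the coactivator, had a ratio of mean CPM of 1.88, against 1.93 for Tcf7l2. Crebbp measured 12.8, 17.1 and 14.3 TPM in dKO replicates 1, 2 and 3, against 8.71 and 5.61 TPM in WT replicates 1 and 2. The groups did not overlap, and the log2 fold change on counts was 0.91 ± 0.31 (SE; 95% interval 0.18 to 1.64, unadjusted p = 0.0204, adjusted p = 0.441 by edgeR). With an offset for GC content and transcript length it was 0.56. Its relative Ep300, which is not one of the 9 genes, measured 13.2, 32.0 and 21.0 CPM in dKO replicates 1, 2 and 3, against 10.4 and 5.13 CPM in WT, and had a log2 fold change of 1.51 ± 0.60 (SE; adjusted p = 0.471 by edgeR).

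No gene passed the adjusted threshold in either direction. By edgeR, 0% of the 13696 genes tested were called higher and 0% lower at an adjusted p under 0.05, with 0 of the 9 among them, although 677 genes had an unadjusted p under 0.05 as higher and 711 as lower. All 9 genes passed the filter on low counts. At an unadjusted p under 0.05, 3 of the 9 genes were higher (Tle2, Crebbp and Tcf7l2), or 33.3%, against 4.94% of all genes, and 0 were lower, against 5.19%. In 5 of the 9 genes, or 55.6%, every library labelled dKO lay above both WT libraries (Lef1, Tcf7l1, Tcf7l2, Tle2 and Crebbp), against 13.7% of all genes, and in 0 every library lay below, against 15.6%. The median log2 fold change of the 9 was 0.91, against 0.04 for all genes. For the 9 it was 0.46 with the replicate number as a block and 0.60 without WT replicate 2 and dKO replicate 2. All genes gave medians of -0.062 and 0.067 in those fits. The 9 genes were chosen with earlier results known, and these counts describe them without testing them as a set. DESeq2, which gave no adjusted p for 1073 genes, called 162 genes higher, 1.18% of those tested, and 92 lower, 0.672%, with Tle2 the only one of the 9.

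**Figure D3:**
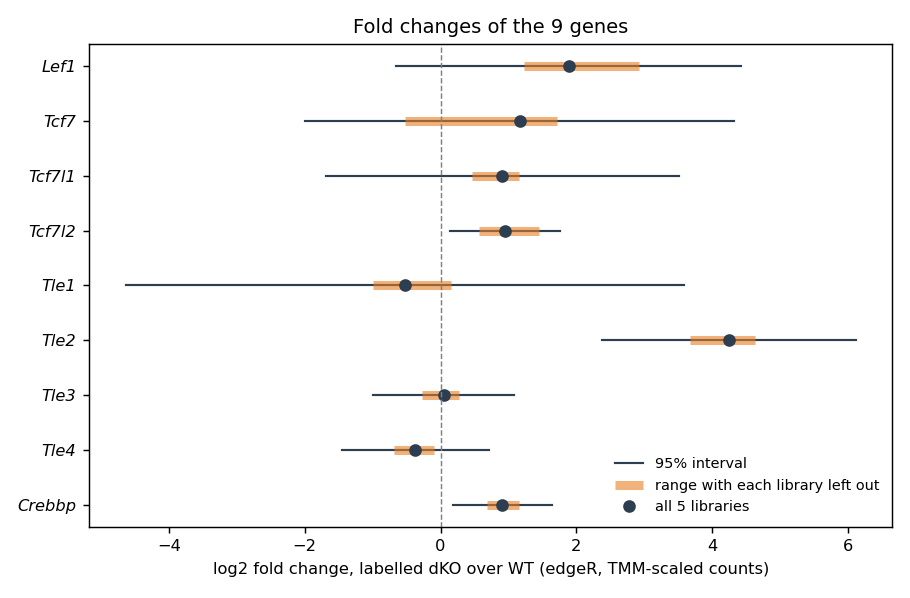
Log2 fold change of the 9 genes, libraries labelled dKO over WT (x axis), from edgeR on all 5 libraries (points), with 95% intervals (thin lines) and the range when each library is left out in turn (thick lines). Tle2 stands at 4.25 with a leave-one-out range of 3.68 to 4.63, and the ranges of Tcf7, Tle1 and Tle3 cross 0.

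The order of the 9 genes by TPM had Tcf7l2 first in all 5 libraries. Group means in the libraries labelled dKO ran from Tcf7l2 (49.0 TPM) through Tle2 (18.0), Crebbp (14.8), Tle4 (8.35), Tle3 (5.03), Tcf7 (4.13), Lef1 (3.60) and Tcf7l1 (2.69) to Tle1 (1.92). Of these neighbours, Tcf7l2 and Tle2 did not overlap over the 3 libraries, nor did Crebbp and Tle4, and all other neighbours overlapped. WT means ran from Tcf7l2 (21.8 TPM) through Tle4 (9.23), Crebbp (7.16), Tle3 (4.98), Tcf7 (1.86), Tle1 (1.77), Tcf7l1 (1.31) and Tle2 (1.04) to Lef1 (0.996). There Tcf7l2 and Tle4, Tle4 and Crebbp, and Tle3 and Tcf7 did not overlap over the 2 libraries, and the other neighbours did. Counts per kilobase of the longest annotated transcript kept Tcf7l2 first and moved Tle4 above Crebbp and Tle2 in the mean over all libraries. For Tle3 the ratio of deposited TPM to CPM differed by up to 2.09-fold between libraries, so its TPM and count values rank the libraries differently, while for Crebbp that ratio differed by no more than 1.09-fold.

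Transcripts of proteins that work with these factors in the nucleus showed both directions. Of 34 listed partner genes 33 were tested and 0 were called higher or lower by edgeR. Of the 33, 21 had a log2 fold change above 0, against 7147 of all 13696 genes. Their median was 0.09, against 0.04 for all genes. For the partners it was -0.03 with the GC and length offset. On log2 TPM it was 0.32 and 0.26 with pseudocounts of 0.1 and 1, where the median of all genes was 0.139 and 0.14. At an unadjusted p under 0.05, 4 were higher, 12.1% of those tested against 4.94% of all genes, and 2 were lower, 6.06% against 5.19%. Among the higher ones were Ep300, the histone methyltransferase gene Kmt2a (listed in the files as Mll1) and, named after its values were seen, Jup (plakoglobin, a relative of beta-catenin). Jup measured 8.55, 31.2 and 2.63 CPM in dKO replicates 1, 2 and 3, against 2.39 and 1.32 CPM in WT replicates 1 and 2. It was thus highest in dKO replicate 2, and dKO replicate 3 lay only narrowly above WT replicate 1. Kmt2a measured 85.8, 81.3 and 73.8 CPM in dKO replicates 1, 2 and 3, against 48.9 and 46.0 CPM in WT, with a log2 fold change of 0.76 ± 0.25 (SE; adjusted p = 0.436 by edgeR). With the GC and length offset it was 0.28, and on log2 TPM with pseudocounts of 0.1 and 1 it was 0.39 and 0.35. In TPM the Kmt2a groups overlapped, with 3.89, 9.60 and 7.86 in dKO replicates 1, 2 and 3, against 5.37 and 4.74 in WT replicates 1 and 2. The lower ones were the paired ATPases Ruvbl1 and Ruvbl2, which both bind beta-catenin. Ruvbl2 measured 273, 347 and 248 CPM in dKO replicates 1, 2 and 3, against 470 and 599 CPM in WT (log2 fold change -0.88 ± 0.21 (SE), adjusted p = 0.430 by edgeR), and Ruvbl1 had a log2 fold change of -0.51 (adjusted p = 0.451 by edgeR), or -0.32 on log2 TPM with either pseudocount.

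Beta-catenin itself, Ctnnb1, measured 160, 150 and 147 CPM in dKO replicates 1, 2 and 3, against 210 and 162 CPM in WT, with a log2 fold change of -0.29 ± 0.20 (SE; adjusted p = 0.701 by edgeR). Leaving out a WT library gave -0.09 (replicate 1) or -0.47 (replicate 2), and log2 TPM gave -0.00431 and -0.00451 with pseudocounts of 0.1 and 1. The deacetylase gene Hdac1, a partner of TLE proteins, measured 168, 130 and 151 CPM in dKO replicates 1, 2 and 3, against 182 and 202 CPM in WT (adjusted p = 0.587 by edgeR). Hdac2 spanned 40.2 to 55.8 CPM in the libraries labelled dKO, inside the WT values of 74.7 and 19.7 CPM. Bcl9 and Pygo2, which link beta-catenin to chromatin, had 0 counts in dKO replicate 2, as Tle1 did, and overlapped between the groups, and Bcl9l did not exceed 4.28 CPM in any library. The short TLE relative Aes, known also as Tle5, measured 63.7, 73.2 and 62.8 CPM in dKO replicates 1, 2 and 3, against 66.3 and 51.0 CPM in WT, and had a log2 fold change of 0.18 (adjusted p = 0.896 by edgeR).

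Of 15 other DNA-binding factors of blood and development, several of which bring TLE proteins to DNA, 11 were tested and 0 were called by edgeR. The median log2 fold change was 0.21, against 0.04 for all genes. Leaving out 1 library changed the median of the 11 to -0.01 (dKO replicate 2), 0.39 (dKO replicate 1) or 0.42 (WT replicate 1). For all genes the median was 0.045, 0.009 and 0.156 in those fits, in the same order. At an unadjusted p under 0.05, 2 were higher, 18.2% against 4.94% of all genes, and 0 were lower, against 5.19%. Hes1, a Notch target whose protein recruits TLE, measured 15.7, 28.6 and 55.1 CPM in dKO replicates 1, 2 and 3, against 3.72 and 3.41 CPM in WT, with a log2 fold change of 3.22 ± 0.65 (SE; adjusted p = 0.430 by edgeR). The repressor Gfi1b measured 78.0, 158 and 87.5 CPM in dKO replicates 1, 2 and 3, against 61.3 and 47.5 CPM in WT (log2 fold change 0.99, adjusted p = 0.446 by edgeR), and its log2 fold change was 0.61 without dKO replicate 2. Runx2 came next by p, at 80.4, 87.4 and 64.2 CPM in the dKO libraries against 63.8 and 39.4 CPM in the WT libraries (log2 fold change 0.58, adjusted p = 0.571 by edgeR), with 0.27 without WT replicate 2 and 0.97 without WT replicate 1.

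Genes known as TCF/LEF targets in other tissues gave no call by edgeR, which called 0% of all genes tested. Of 40 listed targets, including Lef1 and Tcf7 themselves, 28 were tested and 0 were called. Of the 28, 24 had a log2 fold change above 0, against 7147 of all 13696 genes. The median log2 fold change was 0.49, against 0.04 for all genes. For the targets it was 0.09 without WT replicate 2 and dKO replicate 2, and 0.86 without WT replicate 1. All genes gave medians of 0.067 and 0.156 in those fits. In 7 targets (25%) every dKO library lay above both WT libraries, against 13.7% of all genes. In 1 (3.57%) every dKO library lay below both, against 15.6%. At an unadjusted p under 0.05, 1 was higher and 1 lower, each 3.57% of those tested, against 4.94% and 5.19% of all genes. Axin2, the target most used to read the pathway, reached 2 counts in dKO replicate 1 and was at 0 elsewhere, where 3 counts correspond to 0.111 to 0.181 CPM. Jun, which many stimuli also raise, measured 970, 1101 and 896 CPM in dKO replicates 1, 2 and 3, against 437 and 377 CPM in WT (log2 fold change 1.28 ± 0.19 (SE), adjusted p = 0.247 by edgeR). Birc5, the mitotic gene survivin, measured 104, 119 and 160 CPM in the dKO libraries against 163 and 266 CPM in the WT libraries (log2 fold change -0.75, adjusted p = 0.454 by edgeR), with -0.36 without WT replicate 2. Plaur measured 40.1, 53.8 and 58.7 CPM in the dKO libraries against 28.0 and 34.4 CPM in the WT libraries (log2 fold change 0.71, adjusted p = 0.519 by edgeR). Myc averaged 584 ± 86.0 CPM over dKO libraries (SD, n = 3) and 549 ± 18.4 CPM over WT libraries (SD, n = 2). Ccnd1 averaged 12.5 ± 6.69 CPM in dKO libraries and 12.1 ± 4.92 CPM in WT libraries, and both genes overlapped between the groups.

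**Figure D4:**
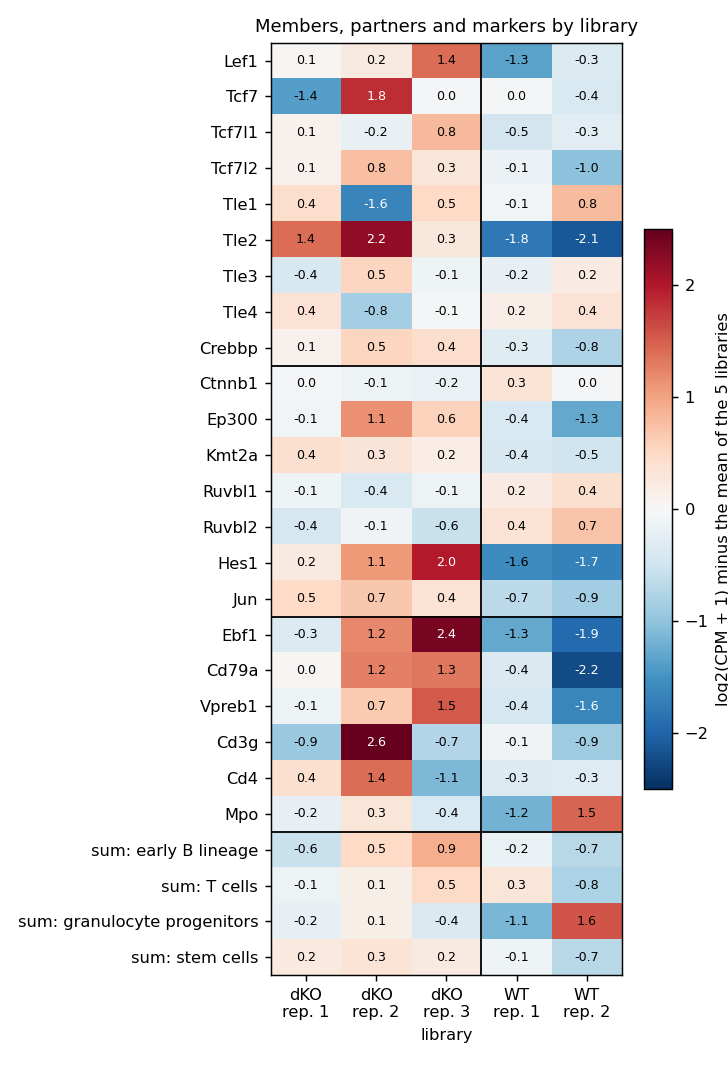
Log2(CPM + 1) minus the mean of the 5 libraries (colour and printed value) for the 9 genes, for partner and target genes, for single markers and for summed marker lists (rows) in each library (columns). Tle2 lies between 0.29 and 2.22 in the libraries labelled dKO and at -1.79 and -2.11 in WT. Tcf7 is highest in dKO replicate 2, as is Cd3g, whereas the T cell sum is highest in dKO replicate 3. Lef1 is highest in dKO replicate 3, as is Ebf1.

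The genes whose pattern over the 5 libraries lay closest to those of Lef1, Tcf7 and Tle2 were found by the root mean square difference of centred log2 CPM among all genes tested. For Lef1 these were Tcrg-C, a T cell receptor gamma constant gene (0.263), the Frizzled receptor gene Fzd8 (0.270) and the lipid phosphatase gene Lpin1 (0.289). Fzd8 did not exceed 1.22 CPM. Closest to Tcf7 were Lmbr1 (0.268), Kif7 (0.291) and Gm15478 (0.322). For Tle2 they were Gm17536 (0.325), SNORA65 (0.333) and Gm10614 (0.368), all 3 of which had 0 CPM in both WT libraries. These are likenesses over 5 libraries and were not tested.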

How the data were processed

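RNA from 6K sorted cells per library was made into Smart-seq2 libraries, per the labels' protocols. The deposited files hold raw counts per gene and TPM for each of the 5 libraries. Per the submitters' processing notes, the build was mm9 and the tools were HTSeq, RSEM 1.2.31, TopHat2 2.1.1, DESeq2, Trimmomatic and FastQC 0.11.5; no source used here says which tool made which values. Entries without a gene (30 per file, 0.216% to 0.269% of counts) were left out. No coordinates of the counted genes are given, because the reference is GRCm38. No source used here gives the strand setting, so reads of genes that overlap the 9 cannot be told apart.

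The deposited counts entered edgeR 4.0.16 under R 4.3.3 (TMM scaling, filterByExpr, robust quasi-likelihood, Benjamini-Hochberg adjustment over 13696 genes, threshold 0.05), labelled dKO over WT, with no covariate. The common dispersion was 0.461. Fold changes and CPM use counts, and levels between genes use TPM. Alternatives were DESeq2 1.42.0, limma 3.58.1 (voom with quality weights, and log2 TPM with a pseudocount of 1 or 0.1), other scalings and filters, a GC and length offset (96.5% of genes had both), a replicate block, and leaving out each library in turn. Counts per kilobase divide CPM by the length of the longest GENCODE transcript on GRCm38.

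The members and lists were chosen with earlier results of these data known. Named genes are the 9 members, Lrp5, Lrp6, 8 set partners, the 3 smallest p per list, Axin2, Myc, Ccnd1 and the 3 nearest patterns of Lef1, Tcf7 and Tle2, and others are said to be named after their values were seen. Markers and the neighbours of Tle2 are named beside the results they touch. Kmt2a and Spi1 were matched by Ensembl identifier. Of the partner list, 1 gene is counted but not reported here by name. Floors (3 counts) cover counting error only.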

Additional observations from a re-analysis of the deposited data

How the results depend on the processing

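The design had 3 libraries labelled dKO and 2 WT libraries, with a biological coefficient of variation of 67.9%. Lef1, Tcf7, Tcf7l1 and Tle1 had 0 to 311 counts per library. Of the 9 genes 5 kept their direction in every alternative that could be fitted: Lef1 (1.17 to 3.13), Tcf7l1 (0.46 to 1.27), Tcf7l2 (0.36 to 1.45), Tle2 (3.03 to 4.63) and Crebbp (0.56 to 1.16). The filter of 5 CPM left 5 of the 9 genes to test. The median of all genes was 0.04 and moved to 0.139 and 0.14 on log2 TPM (pseudocounts of 0.1 and 1), 0.102 with no filter, -0.062 with the block and 0.156 without WT replicate 1. The cause of the changes below was not tested.

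Over all genes, edgeR's calls of 0 higher and 0 lower became 162 and 92 with DESeq2 and 5 and 3 with no filter on low counts, and leaving out 1 library gave 0 to 2 higher and 0 to 3 lower. DESeq2 called 1 of the 9 genes higher (Tle2, 4.26), 1 partner lower (Ruvbl2), 1 TLE-related factor higher (Hes1) and 1 target higher (Jun). No source used here says what the replicate numbers mark. Same-numbered libraries correlated at 0.0325 and 0.0458 in their deviations from the group means, and dKO replicate 3 with WT replicate 1 at 0.0316. With 2 WT libraries the WT deviations mirror each other, so these values cannot show or exclude a shared day or litter. With the replicate block 1 gene was called higher and 0 lower, none of them a member.

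Reversed signs were those of Tcf7 (-0.64 with limma-voom, -0.52 without dKO replicate 2), Tle1 (0.15 without WT replicate 2, 0.06 without dKO replicate 2), Lrp6 (-0.0417) and Aes (-0.000297) without WT replicate 2, and Tle3 (-0.27 with the GC and length offset, -0.06 and -0.0392 on log2 TPM with pseudocounts of 0.1 and 1, -0.18 with limma-voom, -0.16 without WT replicate 1, -0.27 without dKO replicate 2). Leaving out both WT replicate 2 and dKO replicate 2, chosen after seeing the data, gave 1 gene lower and -0.74 for Tcf7, 0.73 for Tle1, -0.0469 for Tle3, 0.00359 for Tle4 and -0.07 for Aes. Of the 9 places in the mean TPM order, 4 to 9 were the same with 1 library left out, the fewest without dKO replicate 2 (4) and dKO replicate 3 (5), and 6 with counts per kilobase. With 1 library left out, Tcf7 ranged from -0.52 to 1.71, Tle1 from -0.99 to 0.15, Tle3 from -0.27 to 0.27, Tle4 from -0.68 to -0.09, Lrp6 from -0.0417 to 1.39 and Aes from -0.000297 to 0.38.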

Other observations

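Tle2 lies on mouse chromosome 10 between other genes of its family: by RefSeq order on GRCm38.p6, Gna11, Aes (Tle5) and a non-coding gene come before it and Tle6 comes after it. These neighbours are named for their position. Gna11, a G protein subunit, measured 42.1, 38.4 and 58.9 CPM in dKO replicates 1, 2 and 3, against 27.4 and 13.5 CPM in WT replicates 1 and 2. Tle6, a divergent short TLE relative, measured 46.0, 65.4 and 36.2 CPM in the dKO libraries against 35.3 and 27.8 CPM in the WT libraries, and Sirt6, farther on, 47.7, 66.2 and 73.6 CPM in the dKO libraries against 71.2 and 46.8 CPM in the WT libraries. Gna15, on the same list of neighbours, measured 95.4, 91.6 and 70.6 CPM in the dKO libraries against 93.4 and 65.7 CPM in the WT libraries. Gna11 and Tle6 did not overlap between the groups, Tle6 only by a narrow margin, while Aes, Sirt6 and Gna15 overlapped. By edgeR the adjusted p was 0.446 for Gna11 and 0.591 for Tle6. Among all genes tested, 13.7% were higher in every dKO library than in both WT libraries.

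The balance of corepressors to DNA-binding factors, taken as summed TLE over summed TCF/LEF TPM, was 0.737, 0.577 and 0.391 in dKO replicates 1, 2 and 3, against 0.464 and 0.999 in WT replicates 1 and 2. The ranges overlapped, and WT replicate 2 held both the highest ratio and the lowest Tcf7l2 level.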
